A study of Mus musculus with 6 samples.

Results

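The genes described here are 37 mouse genes of NF-kB signalling, the interferon response and antigen presentation, out of 21755 protein-coding genes annotated on chromosomes 1 to 19 and X. They were taken from a list of immune genes that neurons carrying DNA breaks are reported to express. The rule for choosing them uses no value measured here, but earlier results of these data were known when they were chosen. The list holds 5 NF-kB subunits, 6 regulators of NF-kB, 8 cytokines, chemokines and adhesion genes, 11 genes of the interferon pathway and 7 genes of antigen presentation. For each gene, DNA break ends were counted in the gene body and within 1 kb of the gene start, in 6 libraries.

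The libraries came from sorted forebrain neurons of CK-p25 mice, in which removal of doxycycline switches on p25, an activator of the kinase Cdk5 whose prolonged expression leads to neuronal loss. Groups named Step1, Step2 and Con had 2 libraries each. All 6 libraries, Con included, carried the CK-p25 genotype and 2 weeks of induction. What separates the groups, the age of the mice and whether the 2 libraries of a group came from different mice are not stated in the sources used here. The p-values thus reflect only the spread between libraries of the same group, which may be technical. That spread was estimated over all 6 libraries together and drawn toward the spread of all genes tested. BLISS ligates an adaptor to free DNA ends in fixed cells, so each read marks a break end; it does not measure RNA, and neither expression of these genes nor the neuronal label could be checked with it.

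NF-kB dimers of Rel-family subunits are held in the cytoplasm by inhibitor proteins until a kinase complex marks the inhibitor for destruction, after which the dimers switch on cytokine, chemokine and adhesion genes. Type I interferons act through a receptor pair on a complex of Stat proteins and Irf9 that binds the interferon-stimulated response element (ISRE), and sensors of foreign or misplaced nucleic acid feed into the same genes through Mavs, Tbk1 and Irf3. Both pathways raise the machinery that loads peptides on MHC class I, which neurons normally hold at a low level.

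Break ends gathered upstream of 2 of these genes, Stat2 and Traf2. Their upstream sequences are shown because they held the most ends among the member promoters in the RefSeq table (GRCm38.p6, the build equivalent to mm10); 30 of the 37 genes matched an entry. Capitals mark bases at which at least 1 break end fell in any of the 6 libraries. The Stat2 sequence is chr10:128270248-128270497 on the plus strand and the Traf2 sequence is chr2:25546941-25547190 on the minus strand, each the 250 bases before the RefSeq start, written 5′ to 3′ along the gene.
Stat2: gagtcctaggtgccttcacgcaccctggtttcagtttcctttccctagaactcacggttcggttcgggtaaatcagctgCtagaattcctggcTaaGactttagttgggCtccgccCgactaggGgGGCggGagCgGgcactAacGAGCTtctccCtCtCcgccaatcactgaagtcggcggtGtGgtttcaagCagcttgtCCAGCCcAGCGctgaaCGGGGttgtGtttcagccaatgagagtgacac
Traf2: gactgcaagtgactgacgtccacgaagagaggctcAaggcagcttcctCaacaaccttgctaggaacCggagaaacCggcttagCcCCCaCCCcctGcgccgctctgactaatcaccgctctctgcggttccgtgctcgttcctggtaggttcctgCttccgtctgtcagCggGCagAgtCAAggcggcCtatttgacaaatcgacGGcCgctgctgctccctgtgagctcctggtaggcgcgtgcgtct

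Of the Stat2 stretch, 40 bases carried 146 ends; the Traf2 stretch had 34 ends on 24 bases. In the full 300-base windows, which run 50 bases past the start, Stat2 had 155 ends and only 29 of 32619 promoter windows had more, whereas Traf2 had 38 ends and 520 windows had more. The median over all windows was 1 end. At Stat2, 90 ends lay on the strand of the gene and 65 on the other strand, with the median end 47 bases before the start. At Traf2, 6 lay on the strand of the gene and 32 on the other.

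Promoters with sites for the factors of these pathways are shown beside them for comparison. Capitals here mark matches to the NF-kB site and to the ISRE, taken as GAAA, any 2 bases and GAAA, both searched on both strands; none of the matches shown overlap each other. Cxcl10, a chemokine gene induced by interferon, is at chr5:92348890-92349139 on the minus strand, and B2m, the light chain of MHC class I, is at chr2:122147437-122147686 on the plus strand.
Cxcl10: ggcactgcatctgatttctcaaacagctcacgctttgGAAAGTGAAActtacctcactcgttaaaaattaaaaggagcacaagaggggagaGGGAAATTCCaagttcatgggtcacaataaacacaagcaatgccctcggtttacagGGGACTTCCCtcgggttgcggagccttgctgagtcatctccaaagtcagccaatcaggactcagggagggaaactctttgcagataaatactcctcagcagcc
B2m: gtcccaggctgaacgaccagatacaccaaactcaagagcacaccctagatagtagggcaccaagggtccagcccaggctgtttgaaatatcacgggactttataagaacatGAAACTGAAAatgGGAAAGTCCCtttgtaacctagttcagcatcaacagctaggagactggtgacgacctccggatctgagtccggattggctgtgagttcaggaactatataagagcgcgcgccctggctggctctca

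The Cxcl10 stretch had 9 break ends and the B2m stretch 5. An NF-kB site was found in 15 of the 36 promoter windows of the 30 genes with an entry, against 4.51% of all 32851 RefSeq promoters; those windows belong to 12 genes, and neither Stat2 nor Traf2 was among the 12. An ISRE was found in 4 of the 36 windows (B2m, Cxcl10, Ifih1 and Stat2), against 3.44% of all promoters, and the gamma-activated site TTCNNNGAA in 6, against 8.3%. At Stat2 the ISRE match, on the other strand, begins at position -222 from the start, and no end fell on its letters. A gene can have several promoter windows that overlap, and a match is a description of letters, not a bound site.

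Libraries held 2403238 and 2043098 reads in Step1, 1526487 and 1480461 in Step2, and 2300995 and 2273508 in Con. Levels are given as RPM, reads scaled to library size, with the total taken outside 26 windows of 10000 bases in which reads had piled up, or as density relative to the genome average. Con replicate 2 stood apart from the other libraries: over all genes, the density within 200 bases of the start was 4.79 times that at 4 to 5 kb, against 2.04 and 2.46 in Step1, 1.98 and 2.31 in Step2 and 2.96 in Con replicate 1. It also had the most reads per position, 1.42, against 1.19 to 1.29 in the others. The main values that rest on it are given without it as well.

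Bodies of the 37 genes carried break ends at about the genome average. Together they span 788 kb and took 0.0296% and 0.0262% of reads in Step1, 0.0296% and 0.0314% in Step2, and 0.0287% and 0.0304% in Con. With all reads Step1 and Con overlapped, as did Step2 and Con. The lowest library had a 95% Wilson interval of 0.024% to 0.0286% and the highest one of 0.0286% to 0.0344%, which cover counting error alone. Relative to the genome average the group means were 0.907 ± 0.0792 in Step1, 0.991 ± 0.041 in Step2 and 0.959 ± 0.0389 in Con (SD, n = 2 each). Over single genes the median density was 0.933 for the 37, beside 0.971 for all coding genes. Exons took 23.1% to 25.5% of the ends in these bodies, and exons are 22.9% of their bases. With 1 read per position the bodies took 0.0288 ± 0.00269% in Step1, 0.0319 ± 0.000707% in Step2 and 0.0301 ± 0.000424% in Con (SD, n = 2 each). Both Step2 libraries then lay above the others, a difference that was not tested.

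**Figure D1:**
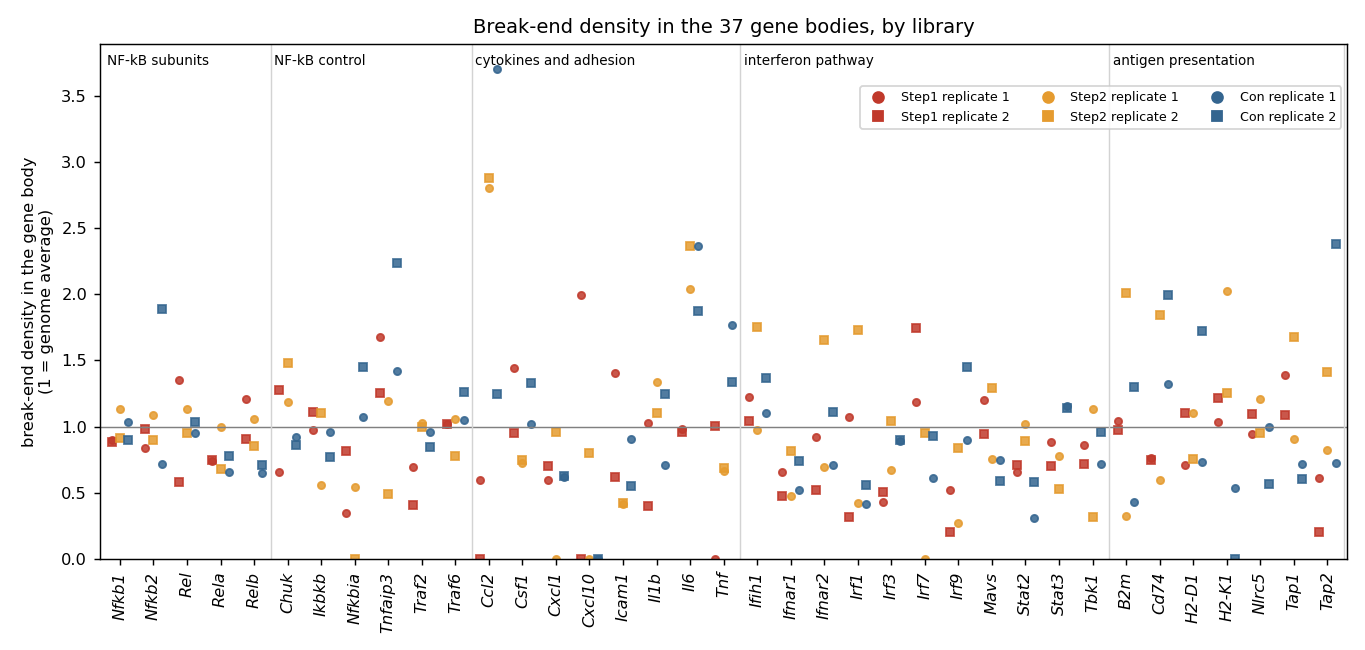
Break-end density in each gene body (y axis, 1 = genome average) for the 37 genes grouped by role (x axis), one point per library, with Step1 left of Step2 and Con for each gene; circles are replicate 1 and squares replicate 2. The longest gene, Nfkb1, lies near 1 in every library, and short genes such as Ccl2, Cxcl10 and Tnf scatter from 0 upward; each of these 3 holds 15 reads or fewer over 6 libraries.

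Among the NF-kB subunits, Nfkb1 (the precursor of the p50 subunit, 107 kb) had 86 and 72 reads in Step1, 69 and 54 in Step2, and 95 and 82 in Con. Those counts are 37.7 and 37.1 RPM in Step1, 47.3 and 38.1 in Step2, and 43.1 and 37.6 in Con, and the groups overlap. Rel had 41 and 15 reads in Step1, 22 and 18 in Step2, and 28 and 30 in Con. Relb, a subunit of the alternative pathway, had 25 and 16 reads in Step1, 14 and 11 in Step2, and 13 and 14 in Con. Rela and Nfkb2, the partners of Nfkb1 and Relb, held 36 and 39 reads over all 6 libraries. The body of Nfkb2 overlaps Psd, so its reads cannot be assigned to one gene. Together the 5 subunit bodies stood at 0.919 ± 0.128 times the genome average in Step1, 1.0 ± 0.15 in Step2 and 0.934 ± 0.00141 in Con (SD, n = 2 each).

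Regulators of NF-kB include the kinase subunits Ikbkb and Chuk, the inhibitor Nfkbia, the deubiquitinase Tnfaip3 and the adaptors Traf2 and Traf6. Tnfaip3 was the densest of them, at 1.45 times the genome average, with 22 and 14 reads in Step1, 10 and 4 in Step2, and 18 and 28 in Con. Traf2 had 18 and 9 reads in Step1, 17 and 16 in Step2, and 24 and 21 in Con. Both Step1 libraries were below all the others for Traf2 once scaled to depth. Ikbkb had 41 and 40 reads in Step1, 15 and 29 in Step2, and 39 and 31 in Con. Chuk had 20 and 33 reads in Step1, 23 and 28 in Step2, and 27 and 25 in Con. Scaled to depth, both Step1 libraries were above both Con libraries for Ikbkb, by little. For Chuk both Step2 libraries were above both Con libraries, and Step1 overlapped both groups. Traf6 held 109 reads in all and Nfkbia, a short gene, 11. The 6 regulator bodies together stood at 0.96 ± 0.0707 times the genome average in Step1, 0.983 ± 0.0813 in Step2 and 1.02 ± 0.0212 in Con.

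Cytokine and chemokine genes are short, and most bodies held too few reads to compare. Ccl2, which attracts monocytes, had the highest density of the 37 at 1.78 times the average, but from 15 reads, 1 and 0 in Step1, 3 and 3 in Step2, and 6 and 2 in Con. Its body overlaps Gm17268. Il6 followed at 1.72, with 6 and 5 reads in Step1, 8 and 9 in Step2, and 14 and 11 in Con. Scaled to depth, both Step1 libraries, at 2.63 and 2.58 RPM, lay below the other 4 for Il6. Cxcl10, which overlaps Art3, was lowest at 0.495, from 5 reads. Tnf, Il1b and Cxcl1 held 11, 28 and 5 reads, Icam1, an adhesion molecule for leukocytes, held 44, and Csf1, a growth factor for microglia, held 94. The 8 bodies together stood at 0.974 ± 0.348 times the genome average in Step1, 0.951 ± 0.0658 in Step2 and 1.16 ± 0.0566 in Con.

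Of the interferon pathway, Stat3 had 43 and 29 reads in Step1, 24 and 16 in Step2, and 54 and 53 in Con. In RPM it was 18.9 and 14.9 in Step1, 16.5 and 11.3 in Step2, and 24.5 and 24.3 in Con, so all 4 Step libraries lay below both Con libraries. The Stat3 body overlaps Stat5a. Stat2 ran the other way, with 5.7 and 6.18 in Step1, 8.91 and 7.76 in Step2, and 2.72 and 5.04 in Con. Ifih1, a sensor of double-stranded RNA, stood at 1.23 times the genome average, with 55 and 40 reads in Step1, 28 and 49 in Step2, and 48 and 59 in Con. Ifnar1 and Ifnar2, the receptor chains, held 61 and 134 reads, the kinase Tbk1 144 and Mavs, the adaptor of RNA sensors, 57. Irf1, Irf3, Irf7 and Irf9 held 27, 17, 16 and 21, and each of these 4 transcription factor genes overlaps another coding gene, as does Ifnar2. The 11 bodies together stood at 0.826 ± 0.137 times the genome average in Step1, 0.923 ± 0.151 in Step2 and 0.925 ± 0.134 in Con.

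Antigen presentation genes gave 1 well-covered body, Nlrc5, the activator of MHC class I genes. It had 78 and 77 reads in Step1, 64 and 49 in Step2, and 80 and 45 in Con, and the low value was Con replicate 2. Tap2, a subunit of the peptide transporter, had 7 and 2 reads in Step1, 6 and 10 in Step2, and 8 and 26 in Con. Of its 59 reads, 19 lay at 1 position, 32.2% of them; with 1 read per position Con had 6 and 7. Cd74, the invariant chain of class II, stood at 1.21 times the genome average, with 6 and 5 reads in Step1, 3 and 9 in Step2, and 10 and 15 in Con. Tap1, B2m, H2-D1 and H2-K1 held 45, 24, 22 and 18 reads; Tap1 overlaps Psmb9 and B2m overlaps Patl2. H2-K1 and H2-D1 have near-identical relatives, so reads may be placed in the wrong copy. The 7 bodies together stood at 0.959 ± 0.041 times the genome average in Step1, 1.12 ± 0.0354 in Step2 and 0.904 ± 0.0354 in Con, with both Step2 libraries above the others. Most of these reads, 393, lay in Nlrc5. The Con libraries were alike only in sum, as Nlrc5 and Tap2 differed between them in opposite directions. With 1 read per position the values were 0.962 ± 0.0262, 1.18 ± 0.0141 and 0.84 ± 0.122 in the same order. The difference between groups was not tested.

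The first comparison asked whether break ends in these bodies differed between Step1 and Con. Of the 37 genes, 21 had at least 10 reads in 2 libraries and were tested among 13811 genes; none was called (limma voom, adjusted p below 0.05), where 0.123% of all genes tested were. None had an unadjusted p below 0.05 either, where 7.08% of all genes did. The largest differences by p were Tap2, with a log2 fold change of -1.66 ± 0.83 (SE, limma adjusted p = 0.706), Stat3 at -0.52 ± 0.27 (0.717) and Traf2 at -0.70 ± 0.43 (0.758) on the lower side. The Tap2 value rested on Con replicate 2: in RPM Tap2 was 3.07 and 1.03 in Step1, against 3.63 and 11.9 in Con, and without that library it did not pass the read filter. On the higher side they were Nlrc5 at 0.42 ± 0.23 (limma adjusted p = 0.736), Relb at 0.63 ± 0.43 (0.785) and Mavs at 0.67 ± 0.57 (0.836). Il6 and Cd74 passed the filter only through the Con libraries, where they were high, so lower Step values were favoured for them. Mavs passed it only through Step libraries, with 15 and 10 reads in Step1, 6 and 10 in Step2, and 9 and 7 in Con. Higher Step1 values were thus favoured for Mavs. The median of the 21 was -0.11, beside -0.04 over all genes tested.

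Step2 against Con gave the same count: 0 of 21 were called, where 0.0941% of all genes were. Stat3 at -0.81 ± 0.33 had the lowest p (limma adjusted p = 0.545), followed on the lower side by Tnfaip3 at -1.12 ± 0.60 (0.671) and Csf1 at -0.61 ± 0.53 (0.817). Nlrc5 at 0.51 ± 0.25 (limma adjusted p = 0.638), Stat2 at 1.14 ± 0.57 (0.644) and Chuk at 0.57 ± 0.36 (0.735) led the higher side. Without Con replicate 2 the Nlrc5 value was 0.11, and 0.01 in Step1 against Con, so it rested on that library. Stat3 and Nlrc5 had unadjusted p values below 0.05, 2 of 21 genes, where 7.77% of all genes did. The median of the 21 was 0.08, beside -0.04 over all genes. Both comparisons share the Con libraries.

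With 1 read per position, 17 of the 37 bodies were tested among 12715 genes and none was called, where 0.118% of genes were in Step1 against Con, 0.126% in Step2 against Con and 0.0315% in Step2 against Step1. In Step2 against Con, 3 bodies had an unadjusted p below 0.05, where 7.97% of genes did: Nlrc5 at 0.55 ± 0.21 (limma adjusted p = 0.405), Stat3 at -0.73 ± 0.28 (0.428) and Stat2 at 1.13 ± 0.52 (0.545). In Step2 against Step1 it was Traf2 alone, at 0.85 ± 0.38 (limma adjusted p = 0.98), where 4.89% of genes did, and in Step1 against Con none, where 8.23% did. Stat2 passed the read filter here only through Step libraries, with 12 and 10 reads in Step1, 13 and 9 in Step2, and 6 and 8 in Con. Higher Step values were thus favoured for Stat2.

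**Figure D2:**
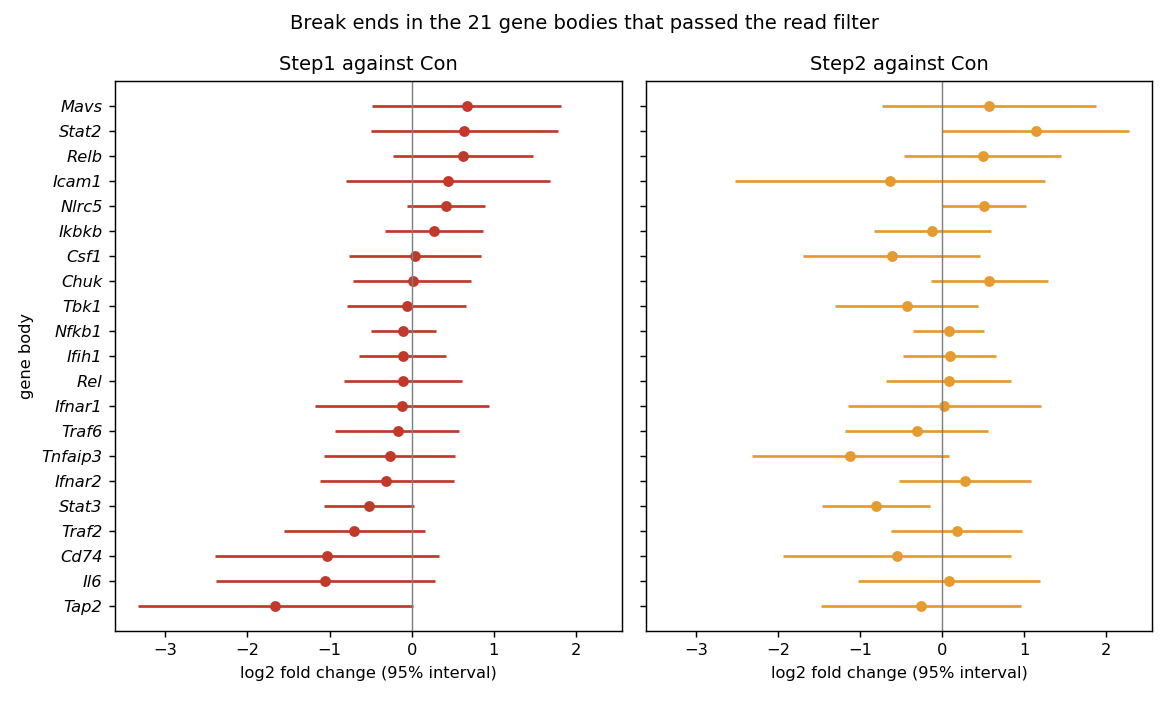
Log2 fold change with its 95% interval (x axis) for the 21 gene bodies that passed the read filter (y axis, same order in both panels), Step1 against Con on the left and Step2 against Con on the right. Stat3 is the only body in Step2 against Con whose interval lies wholly below 0, from -1.47 to -0.15, before adjustment over all genes.

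Step2 against Step1 called 0 of 21 bodies, where 0.0434% of all genes were called. Traf2 at 0.88 ± 0.45 and Tnfaip3 at -0.85 ± 0.61 had the lowest p on each side (limma adjusted p = 0.999), and no member had an unadjusted p below 0.05, where 3.42% of genes did. Groups were fully separated, with no overlap between libraries, for 10 of 21 bodies in Step1 against Con, 9 in Step2 against Con and 8 in Step2 against Step1. Over all genes tested the shares were 36.7%, 36.9% and 34.0%, beside 47.6%, 42.9% and 38.1% of the members tested, and nothing is read from the differences. In simulated libraries of this depth, 15.5% of 2-fold and 72% of 4-fold changes were recovered for Step2 against Con, so differences of 2-fold would mostly be missed. The simulation gave every group the same spread beyond counting noise (dispersion 0.02). Changed genes were drawn from all 13811 tested, so the shares are not those for these members.

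Gene starts were denser in break ends than bodies. Within 1 kb of the start the median density of the 37 was 1.45 times the genome average, beside 1.11 over all coding genes. With 1 read per position the medians were 1.35 and 1.22. Pooled starts of the 37 gave group means of 1.7 in Step1, 2.04 in Step2 and 2.4 in Con. Pooled starts of all coding genes gave 3.28 to 3.74 by library, with reads in piled-up windows counted. Library size leaves those windows out, which raises these values. Group means of the 37 were the same without the windows, so the 2 sets cannot be compared with all reads. With 1 read per position the pooled starts of all coding genes were at 1.36 to 2.08, beside 1.67, 1.98 and 2.13 for the 37. Together the starts took 0.00447% and 0.00536% of reads in Step1, 0.005% and 0.00677% in Step2, and 0.00563% and 0.00824% in Con. Part of the spread lay in Stat2. Without it the group means were 0.00396 ± 0.000445% in Step1, 0.00502 ± 0.000785% in Step2 and 0.00468 ± 0.000064% in Con (SD, n = 2 each). The small Con SD rested on Ccl2, with 24 and 0 reads in Con. Without Ccl2 as well, the means were 0.0037 ± 0.000219%, 0.00452 ± 0.000389% and 0.00413 ± 0.000834% in the same order. Without Stat2 alone but with 1 read per position, they were 0.00395 ± 0.000099%, 0.00512 ± 0.000651% and 0.00477 ± 0.000997%. Ends within 200 bases of the start were 4.86 times as dense as at 4 to 5 kb in Step1, 5.3 times in Step2 and 7.11 times in Con. Without Stat2 the ratios were 3.35, 3.69 and 3.53, beside 2.24, 2.14 and 3.89 over all genes. In Con replicate 1 alone the ratios were 6.23 for the 37 genes, 4.15 without Stat2 and 2.96 over all genes.

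**Figure D3:**
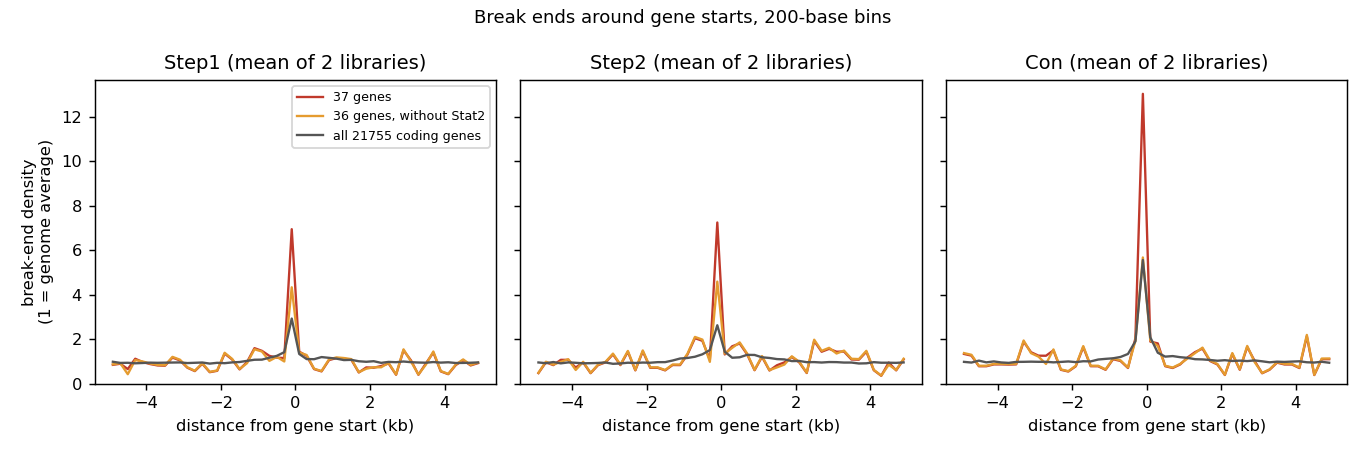
Break-end density (y axis, 1 = genome average) in 200-base bins by distance from the gene start (x axis), as the mean of 2 libraries in Step1, Step2 and Con. Red is the 37 genes, orange the 36 without Stat2, grey all 21755 coding genes; the peak lies just upstream of the start. The orange and grey peaks look alike in Con only as a mean of unlike libraries: they are 5.65 and 4.02 in Con replicate 1, and 5.7 and 7.1 in Con replicate 2.

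Stat2, a partner of Irf9 in the interferon-activated complex, had the most ends of any member start, 164 reads at 63 positions and 18.3 times the genome average. It ranked 58 of 21755 genes by reads and 60 with 1 read per position. The reads numbered 19 and 21 in Step1, 8 and 17 in Step2, and 22 and 77 in Con. In RPM that is 8.33 and 10.8 in Step1, 5.48 and 12 in Step2, and 9.98 and 35.3 in Con. Con replicate 2 was high, and Con replicate 1 lay within the range of the Step libraries. With 1 read per position the counts were 17 and 15 in Step1, 6 and 8 in Step2, and 14 and 32 in Con. Both Step2 libraries were then below the other 4 once scaled to depth. The share of all starts that separate was not counted with 1 read per position. With all reads, 72.4% of 917 starts separated in Step2 against Con and 33.2% in Step2 against Step1, so nothing is read from this.

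**Figure D4:**
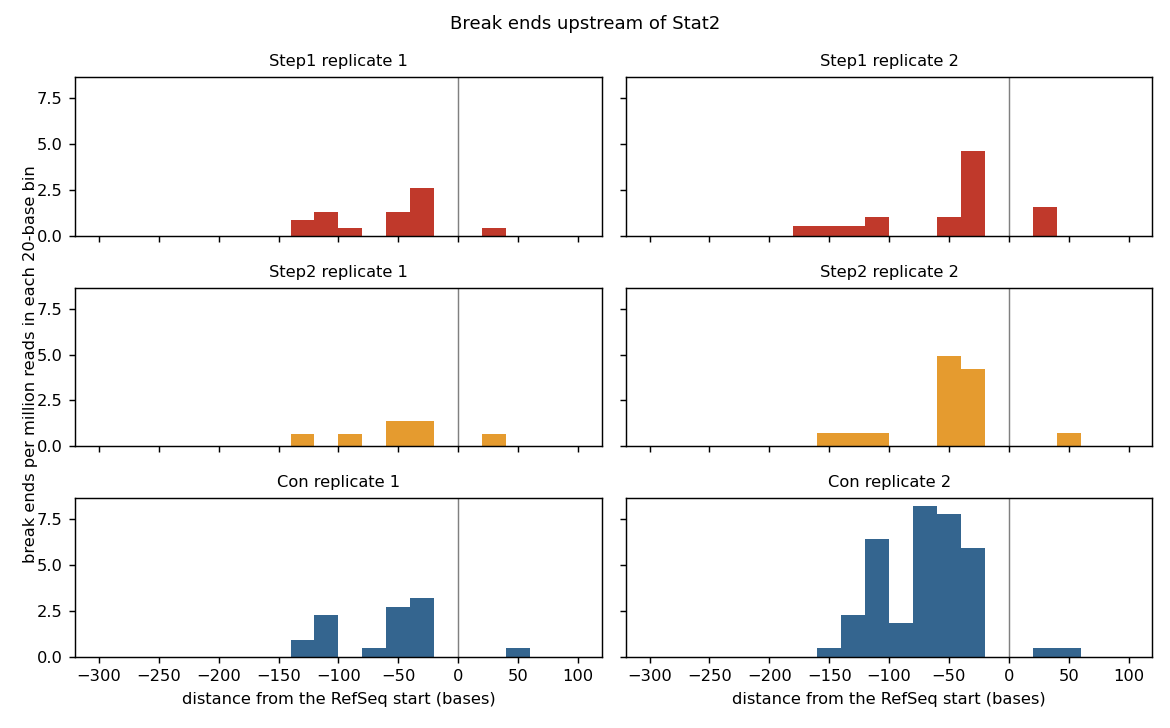
Break ends in 20-base bins, in RPM (y axis), by distance from the RefSeq start of Stat2 (x axis), with Step1, Step2 and Con from top to bottom and replicates 1 and 2 from left to right. Ends lie between 180 and 20 bases before the start in every library, with few after it, and Con replicate 2 is the highest.

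Traf2, an adaptor of the TNF receptors, had 9 and 10 reads at its start in Step1, 8 and 2 in Step2, and 10 and 12 in Con, at 5.68 times the genome average. Ccl2 had 2 and 8 in Step1, 3 and 11 in Step2, and 24 and 0 in Con. Of the 48 Ccl2 reads, 29.2% lay at 1 position, and the region overlaps Gm17268. Il6 had 4 and 5 reads in Step1, 4 and 4 in Step2, and 6 and 3 in Con. Cxcl10 had 6 and 3 in Step1, 3 and 2 in Step2, and 0 and 10 in Con. For Il6 the Step2 libraries, at 2.74 and 2.82 RPM, were just above the highest of the others, 2.72 in Con. This did not hold with 1 read per position, where Il6 had 4 and 5 in Step1, 3 and 3 in Step2, and 2 and 3 in Con. Scaled to depth, Step1 replicate 2 was then the highest. For Traf2, Ccl2 and Cxcl10 the groups overlapped.

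**Figure D5:**
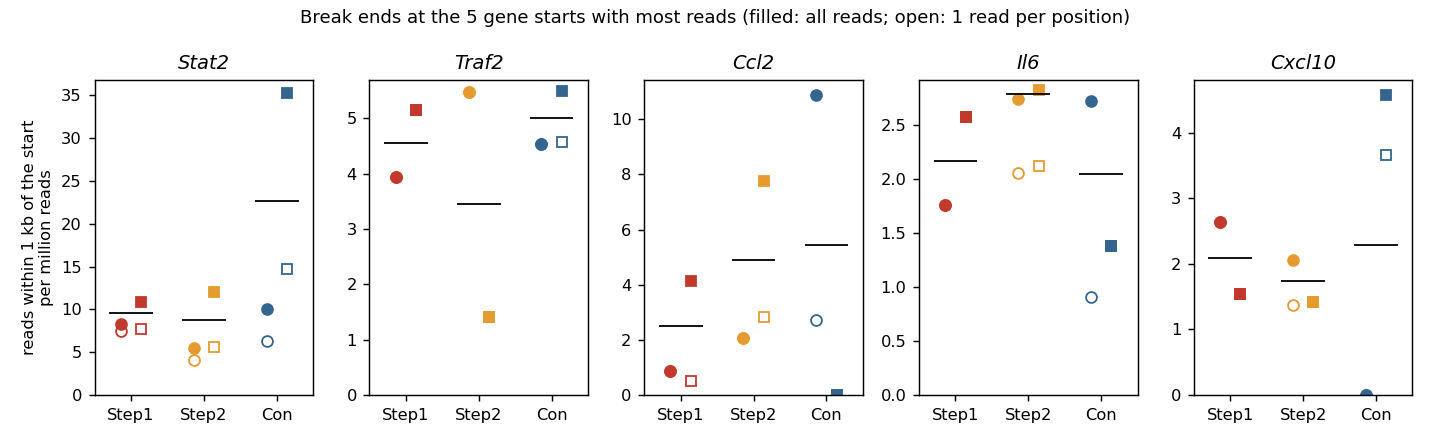
RPM within 1 kb of the start (y axis, scaled separately per gene) in Step1, Step2 and Con for the 5 starts with most reads; filled points are all reads, open points 1 read per position over the same library size (hidden where equal), circles replicate 1, squares replicate 2, and the line is the mean of all reads. For Stat2 the Con mean is raised by replicate 2 at 35.3, while the other 5 libraries lie between 5.48 and 12.

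Only Stat2, Traf2 and Ccl2 had enough reads for a test, among 917 starts. Over those 917 the median log2 fold change was -0.95 in Step1 against Con and -1.19 in Step2 against Con, but this holds only for starts past the read filter. With no filter the medians over 21216 starts were -0.12 and 0.01. Without Con replicate 2 they were -0.49 and -0.77 over 521 starts. None of the 3 was called in Step1 against Con or Step2 against Con, where 0.109% of all starts were called in each. The groups overlapped for all 3 in every comparison, where 63.8% of all starts did not overlap in Step1 against Con, 72.4% in Step2 against Con and 33.2% in Step2 against Step1. None had an unadjusted p below 0.05, where 23.9%, 20.7% and 2.29% of all starts did in the same order. Stat2 was at -0.97 ± 0.65 in Step1 against Con (limma adjusted p = 0.286) and -1.16 ± 0.65 in Step2 against Con (limma adjusted p = 0.265). Traf2 was at -0.14 ± 0.53 and -0.68 ± 0.75 in the same order of comparisons, and Ccl2 at 0.29 ± 1.59 and 1.42 ± 1.46. The Ccl2 signs oppose the group means of 2.5 RPM in Step1, 4.91 in Step2 and 5.45 in Con, because Con replicate 2 had 0 reads. Without that library Ccl2 was at -2.49 and -1.37. Step2 against Step1 called none of the 3, where 0.0% of all starts were called, with Ccl2 at 1.13 ± 1.22 and Traf2 at -0.54 ± 0.75 (limma adjusted p = 0.971 for both).

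With 1 read per position, Stat2 and Traf2 were tested among 478 starts and neither was called, where 4.18% of starts were in Step1 against Con, 0.628% in Step2 against Con and 0.837% in Step2 against Step1. Stat2 was at -0.48 ± 0.45 in Step1 against Con and at -1.01 ± 0.48 in Step2 against Con (limma adjusted p = 0.39 and 0.212), beside medians of -0.81 and -0.93 over all starts. Its unadjusted p was below 0.05 in Step2 against Con, as for 19.9% of starts; it was not in Step1 against Con or Step2 against Step1, where 35.4% and 2.93% were.

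The Stat2 result depended on the Con libraries. With Con replicate 2 as the only Con library, Stat2 was at -1.87 in Step1 against Con (limma adjusted p = 0.000548) and -2.07 in Step2 against Con (limma adjusted p = 0.000142), the lone library being assumed to vary like the other groups. In those fits 217 and 162 of 624 starts were called. Without Con replicate 2, Stat2 was at -0.08 and -0.27, beside medians of -0.49 and -0.77 over the starts tested in those fits. Scaling by the median ratio over starts, which brought the medians of all starts to 0.04 and 0.05, put Stat2 at 0.08 in Step2 against Con and called Ccl2 there at 4.13 (limma adjusted p = 0.00347), a direction opposite to that of the group means.

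The other starts held 26 reads or fewer over 6 libraries. The Tnf start, singled out after its values were seen, had 1 and 1 reads in Step1, 0 and 0 in Step2, and 6 and 7 in Con. A count of 0 over the Step2 libraries allows up to 1.28 RPM (exact Poisson), against 0.477 ± 0.0541 in Step1 and 2.96 ± 0.342 in Con (SD, n = 2 each). It was too low for the read filter and was not tested. The 7 starts of antigen presentation genes held 25 reads in Step1, 33 in Step2 and 26 in Con, or 1.06 ± 0.306, 2.1 ± 0.311 and 1.08 ± 0.124 times the genome average. No single one of them had enough reads for a test. The 5 starts of NF-kB subunits held 22, 20 and 17 reads in the same order of groups.

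No body among other genes of the same pathways was called. Of these lists, 27 of 38 further NF-kB genes, 23 of 31 interferon genes and 8 of 21 antigen presentation genes were tested. Of the 31 interferon symbols, 2 matched no annotated gene. None was called in any of the 3 comparisons, but few genes of any kind were. The shares over all genes tested were 0.123% in Step1 against Con, 0.0941% in Step2 against Con and 0.0434% in Step2 against Step1. Traf1, an adaptor induced by NF-kB, had 20 and 9 reads in Step1, 23 and 15 in Step2, and 10 and 9 in Con, with a log2 fold change of 1.55 ± 0.50 in Step2 against Con (limma adjusted p = 0.386). Usp18, a brake on interferon signalling, was at 1.31 ± 0.45 in Step2 against Con (limma adjusted p = 0.452). Cyld, a deubiquitinase that limits NF-kB, was at -0.61 ± 0.28 in Step1 against Con (limma adjusted p = 0.678). Irf5, an interferon regulatory factor, was at -1.46 ± 0.75 in Step1 against Con and 2.04 ± 0.76 in Step2 against Step1 (limma adjusted p = 0.712 and 0.999), with 2 and 9 reads in Step1, 10 and 15 in Step2, and 13 and 12 in Con. Ctss, a protease of antigen processing, was at 0.82 ± 0.42 in Step2 against Con (limma adjusted p = 0.655). Its reads were 23 and 30 in Step1, 16 and 35 in Step2, and 34 and 12 in Con. Step2 and Con thus overlapped, and the low Con value was replicate 2. The other bodies named by the lowest p on each side (Irak4, Otulin, Malt1, Tlr4, Usp18 in Step1 against Con, Ddx58, Jak1, Ctss in Step1 against Con, Erap1, Ciita, Pdia3 and H2-Ab1) lay between -0.69 and 0.80. At starts, Map3k14, the kinase of the alternative NF-kB pathway, had 6 and 8 reads in Step1, 3 and 3 in Step2, and 15 and 23 in Con. Tyk2, a kinase of the interferon receptor, had 8 and 2 reads in Step1, 5 and 4 in Step2, and 12 and 26 in Con. Both passed the read filter only through Con, so their fold changes are not given. Canx, a chaperone of MHC class I, was at -1.03 ± 0.53 in Step2 against Con (limma adjusted p = 0.248).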

How the data were processed

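BLISS reads of 6 libraries (Step1, Step2 and Con, 2 each) were used as deposited. Per the series' design text, the authors removed PCR duplicates by molecular identifier, mapped reads to mm10 with Bowtie2 and converted the alignments with SAMtools and bedtools; no version numbers were found in these sources. The only value column of the deposited files is a mapping quality score, from 11 to 42. The 5′ end of each read was counted in GENCODE vM21 gene bodies and within 1 kb of gene starts, with all reads and with 1 read per position and strand. Library size was the number of reads outside 26 windows of 10000 bases holding over 20 times the median of 45 reads. Features with at least 10 reads in 2 libraries were tested with limma 3.58.1 voom in R 4.3.3, with a mean per group over all 6 libraries and Benjamini-Hochberg adjustment over all features (threshold 0.05). With 2 libraries a group the smallest exact permutation p is 0.33, so none was used. Replicates differed beyond counting noise (chi-square per degree of freedom 1.46, 1.59 and 2.15 in Step1, Step2 and Con). The procedure was tested on simulated data. All 37 members are named with counts; fold changes are printed for members called and for those with the lowest p on each side, and for the lowest p on each side of each list of other pathway genes. Members and lists were chosen with earlier results of these data known. Alternatives covered scaling, filters, mapping quality, piled-up windows, GC content, sequencing run, region width and single libraries.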

Additional observations from a re-analysis of the deposited data

How the results depend on the processing

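No member body was called under any setting run. The numbers of features called over the whole table moved with the setting, in the order Step1 against Con, Step2 against Con, Step2 against Step1. For bodies, against 17, 13 and 6, there were 9 in the first comparison with median-of-ratios scaling, 10, 5 and 3 with no filter, 9 and 8 in the first 2 with at least 20 reads, 35, 31 and 1 without piled-up windows, 4 and 3 in the first 2 within sequencing run 1, and 26 and 27 in the first 2 without the start region. In Step2 against Step1 there were 3 after GC removal and 2 at mapping quality 30. For starts, against 1, 1 and 0, there were 6, 23 and 1 with median-of-ratios scaling, 3 and 3 in the first and last with no filter, 9 and 36 in the first 2 with at least 20 reads, 4, 11 and 3 after GC removal, 20, 3 and 4 with 1 read per position, 2 in the first at mapping quality 30, 0 and 0 in the first 2 without piled-up windows and within 500 bases, 3 and 5 within run 1, and 12 and 42 within run 2. The replicate block gave 38, 43 and 11 for bodies and 136, 147 and 4 for starts, no member among them; same-numbered libraries did not deviate together (correlations -0.0051, 0.0327 and 0.005), so the numbers are not taken as pairs. Leaving out 1 library gave 2 to 148, 1 to 106 and 2 to 8 bodies and 1 to 217, 1 to 162 and 0 to 6 starts; the highest counts against Con came without Con replicate 1. Members called at starts then ranged from 0 to 1 in both comparisons with Con, and 1 was called in Step2 against Con under median-of-ratios scaling.

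The median of members tested ranged over left-out libraries from -0.25 to 0.05, -0.06 to 0.19 and -0.05 to 0.14 for bodies, and from -1.08 to 0.05, -1.44 to -0.55 and -0.38 to 0.34 for starts. It was -0.00 for bodies in Step1 against Con and -0.50 for starts in Step2 against Step1 with 1 read per position, and 0.88, 0.37 and 0.09 for starts with median-of-ratios scaling. The pooled share was 0.0319% for Step2 bodies with 1 read per position, and 0.00396% in Step1 and 0.00468% in Con for starts without Stat2; that omission, the left-out libraries and the rescaled medians were chosen after seeing the data. Of 22 named fold changes, 14 kept their direction throughout. Tnfaip3 bodies in Step2 against Step1 turned to 0.13 within run 2. At starts, Ccl2 turned to -0.97 with the replicate block in Step1 against Con, and ranged over left-out libraries from -2.49 to 1.43, -1.37 to 2.32 and -0.01 to 2.03. Traf2 ranged from -0.33 to 0.05, -1.57 to 0.16 and -1.42 to 0.30, and was 0.88 and 0.37 against Con with median-of-ratios scaling, where Stat2 was 0.08 in Step2 against Con. The cause of these changes was not tested. Depth limits the rest: 34 of 37 starts were too low to test.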
